A study of Mus musculus with 16 samples.

Results

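The genes described here are odorant receptors of mouse chromosome 7 whose symbol numbers fall outside those of its largest receptor group. They were set apart by symbol and not by position. They are the 113 probe sets of the array whose identifier places them on chromosome 7 and whose platform symbol is an Olfr symbol outside Olfr543 to Olfr691 and outside Olfr64 to Olfr69, with Olfr2, Olfr17 and Olfr78 left out as well. They make up 113 of the 232 receptor probe sets of that chromosome, 113 of 1091 on the array and 113 of the 22206 probe sets tested. The rule itself uses no measured value, but it was chosen with earlier results of these data known. By their symbols and positions most are class II receptors, the large class typical of land vertebrates, whereas Olfr543 to Olfr691 hold mostly the class I, fish-like receptors.

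Odorant receptors are G protein-coupled receptors in the cilia of olfactory sensory neurons, where a bound odorant acts through Gnal, the olfactory G protein subunit, and Adcy3, the cyclase that makes cyclic AMP, to open a cation channel. A mature neuron expresses mainly 1 receptor gene from 1 allele, so the mRNA of a receptor in a cell suspension reports on a small set of neurons. Receptor genes lie in clusters on many chromosomes, and neighbours in a cluster are often close relatives. Receptor choice involves homeodomain factors, such as Lhx2, whose binding sites contain the core letters TAATTA, and Ebf factors, which bind TCCC and GGGA set 2 bases apart, in promoters and in distant enhancers.

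The arrays measured RNA of sorted cells of the olfactory mucosa of S100a5-tauGFP mice on a C57BL/6 background, of both sexes and 7 to 12 weeks old. All mice carried the reporter, tau joined to a green fluorescent protein (GFP) under the control of S100a5, which olfactory neurons transcribe when active. The 24 mice were kept singly in clean air chambers for 40 h, and from 26 h onward each received 10 s of undecanal, an aldehyde odorant, or of filtered air as vehicle every 20 min. Mice were pooled by 3, and each of the 4 pools per agent was sorted into a fraction titled GFP+ and a fraction titled GFP-, which gave 16 arrays in 4 groups of 4. The sort shows activity only through the reporter, a pool hides the spread between its mice, and p-values measure only the spread between pools. The comparison the assay is built for is the receptor mRNA of the fractions after an odorant against that after vehicle.

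Title and characteristics contradicted each other on the GFP sign of every one of the 16 samples, so groups follow the titles and are called titled GFP+ and titled GFP-. S100a5 went against the titles: it averaged 16.58 ± 0.260 in vehicle arrays titled GFP- and 15.66 ± 0.126 in those titled GFP+ (SD, n = 4), and was lower in the fraction titled GFP+ of 4 of 4 vehicle and 4 of 4 undecanal pools (differences -0.91 and -0.97 on the log2 scale, limma adjusted p = 7.15e-04 and 3.94e-04). Every direction below is between libraries labelled titled GFP+ and titled GFP-. The fractions also differed in cell type markers. Of the immune markers 13 of 13 measured were higher in the fraction titled GFP+, where their mean over the list was 11.96 to 12.83 on vehicle arrays and 11.63 to 12.90 on undecanal arrays compared with 4.45 to 5.05 and 4.54 to 5.05 for the other fraction. Over all probe sets 8.82% were higher and 5.12% lower with vehicle, and 8.83% and 4.36% with undecanal. Of the markers of mature olfactory neurons 4 of 18 were lower and 0 higher, with array means of 15.45 to 15.51 against 15.72 to 15.77 in vehicle pools. Omp, the classic marker of these neurons, differed by -0.0035 and -0.046, a difference that median centring of the arrays turned into a call (-0.36 and -0.40). The part of these marker shifts in the receptor differences was not tested. In sorted pools, fewer neurons that express a receptor and less receptor mRNA per neuron cannot be told apart.

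RefSeq promoters of assembly GRCm38.p6, 250 bases before to 50 after the modelled start, were at hand for 102 of the 113 members. In 87 of these 102 the gene model spans at most 1500 bases, about the size of the single coding exon of a receptor, so that the modelled start can lie downstream of the true transcription start. The letters TAATTA, which read the same on both strands, stood in 13 of 102 promoters (12.75%), in 176 of 948 receptor promoters (18.57%) and in 1738 of 32851 promoters of all genes (5.291%). The Ebf letters, TCCC and GGGA set 2 bases apart and searched on both strands, stood in 1 of 102 (0.9804%), 5 of 948 receptor promoters (0.5274%) and 297 of all promoters (0.9041%). The windows below show the homeodomain core letters in 6 members that span the range of differences between sort fractions, 5′ to 3′ on the strand of the gene, with TAATTA in capitals.
Olfr481, chr7:108080682-108080711, strand +: cattttataatgTAATTAtaagactatatt
Olfr491, chr7:108316698-108316727, strand +: aagattgaggctTAATTAttctcatgttac
Olfr520, chr7:99735021-99735050, strand +: ctgttttcagatTAATTAacaataaatatt
Olfr478, chr7:108034078-108034107, strand -: acaattcaatagTAATTAgagactgctata
Olfr301, chr7:86403665-86403694, strand +: attcctgaatttTAATTAaggccatttttg
Olfr487, chr7:108212711-108212740, strand -: tttctggttgaaTAATTAgaagaacttatt

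The first of these belongs to a receptor much lower in the fraction titled GFP+ (Olfr481, difference -5.04 in vehicle pools) and the last to one that was higher (Olfr487, 2.86). Of the 13 members with these letters 1 was called higher and 8 lower in vehicle pools. Of all 113 members 15.93% were called higher and 49.56% lower, and of all probe sets 8.82% and 5.12%. The median difference was -1.16 in the members with these letters against -0.80 in those without. With 13 such members this is a description, and a link between the letters and the direction was not tested. The matches describe the letters of the windows and are not shown to be bound. The 250 bases before the modelled start of 1 strongly lower and 1 higher member are given, chosen after the values were seen. They differ in base composition, Olfr536 having 56.4% G and C and Olfr292 38%. Base composition was computed for no other member, and a link with direction was not tested.
Olfr536, chr7:140507319-140507568, strand -: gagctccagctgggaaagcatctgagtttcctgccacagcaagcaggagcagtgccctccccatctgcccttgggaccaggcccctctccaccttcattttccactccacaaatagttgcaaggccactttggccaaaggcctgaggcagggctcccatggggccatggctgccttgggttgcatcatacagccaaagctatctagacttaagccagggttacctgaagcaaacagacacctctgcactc
Olfr292, chr7:86688091-86688340, strand +: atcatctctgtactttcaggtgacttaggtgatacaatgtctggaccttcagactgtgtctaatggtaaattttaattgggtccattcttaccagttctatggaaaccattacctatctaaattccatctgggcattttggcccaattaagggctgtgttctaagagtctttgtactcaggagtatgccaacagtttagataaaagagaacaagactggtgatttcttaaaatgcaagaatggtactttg

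Most of these receptors were detected. With the background set at log2 4.802, a level that 95% of vomeronasal and bitter receptor probe sets do not exceed, 102 of the 113 had a group mean above it in at least 1 group and 89 in all 4 groups. The 11 below it in every group were Olfr294, Olfr304, Olfr310, Olfr474, Olfr485, Olfr486, Olfr503, Olfr512, Olfr513, Olfr514 and Olfr700. All 113 entered the fit, and no member was dropped for a low value.

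Between the sort fractions of vehicle pools, more of these receptors were lower than higher in the fraction titled GFP+. Of 113 members 56 (49.56%) were lower and 18 (15.93%) higher at a limma adjusted p under 0.05, and 39 did not pass. Over all 22206 probe sets the shares were 5.12% lower and 8.82% higher. On the log2 scale the members' median difference, the fraction titled GFP+ minus the other, was -0.84, against -0.11 over all probe sets. Among the 978 other receptors 34.56% were lower and 23.42% higher, with a median of -0.31, and among the 111 receptors Olfr543 to Olfr691 on the same chromosome 27 were lower and 18 higher, with a median of -0.35. The difference between these sets of receptors was not tested. The differences were large: 71 of 113 exceeded 1 on the log2 scale in size and 23 exceeded 3, of which 18 were lower and 5 higher. The 4 arrays titled GFP+ lay entirely below those titled GFP- for 53 members and entirely above for 17, where 8.26% and 9.83% of all probe sets did so.

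In vehicle pools the receptor with the lowest value relative to the other fraction was Olfr309. On the vehicle arrays titled GFP- of pools 1 to 4 it read 15.79, 15.59, 16.05 and 15.71, and on those titled GFP+ 8.94, 9.88, 11.84 and 11.21. The groups were far apart, and the arrays titled GFP+ were scattered over a range many times that of the arrays titled GFP-. The difference was -5.32 (SE 0.558, limma adjusted p = 1.27e-06), or 39.8-fold lower. In undecanal pools Olfr309 read 15.48, 15.52, 15.56 and 15.86 against 9.60, 8.74, 10.30 and 11.80, a difference of -5.50, again with no overlap. Olfr536 read 13.14, 14.36, 14.49 and 14.71 in vehicle arrays titled GFP- and 7.07, 9.06, 9.71 and 9.66 in those titled GFP+, with pool 1 lowest on both sides. Its difference was -5.30 (SE 0.552, limma adjusted p = 1.15e-06) with vehicle and -5.50 with undecanal, where the arrays read 14.16, 13.97, 14.23 and 15.24 against 8.25, 7.88, 9.39 and 10.07. These are the only members more than 5 lower with both agents.

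Olfr481 had a smaller spread than Olfr309 and Olfr536 on the arrays titled GFP+. It read 9.55, 10.48, 10.67 and 10.24 in vehicle arrays titled GFP- and 4.73, 4.70, 5.73 and 5.63 in those titled GFP+, 2 of which lay below background. The difference of -5.04 had the smallest adjusted p of all members in vehicle pools (SE 0.279, limma adjusted p = 3.99e-10), and the undecanal arrays read 10.00, 10.04, 9.97 and 10.33 against 5.05, 4.73, 5.10 and 5.76, a difference of -4.92. Olfr533, of the same stretch of the chromosome as Olfr536, read 13.85, 14.45, 14.92 and 15.37 against 9.33, 10.05, 10.63 and 10.76 with vehicle, and 14.77, 14.55, 14.84 and 15.36 against 10.00, 9.53, 10.69 and 11.10 with undecanal. Its differences were -4.46 (limma adjusted p = 6.91e-08) and -4.55. The next 8 in size in vehicle pools ran from -4.40 to -3.58 and were all lower with undecanal too: Olfr494, Olfr472, Olfr522, Olfr490, Olfr695, Olfr491, Olfr520 and Olfr517. Of these, Olfr520 lay below background on all 4 undecanal arrays titled GFP+ and on 3 of the 4 vehicle arrays, so the undecanal difference is a bound of at least 15-fold lower.

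At the other end stood Olfr291. It read 7.92, 8.24, 8.03 and 7.36 in vehicle arrays titled GFP- and 12.61, 13.24, 12.51 and 11.75 in those titled GFP+. Each array titled GFP+ was above each array titled GFP-, and the difference was 4.64 (SE 0.370, limma adjusted p = 3.90e-08), or 24.9-fold higher. In undecanal pools it read 9.07, 7.42, 7.08 and 7.06 against 12.32, 12.13, 12.06 and 12.03, a difference of 4.48 (limma adjusted p = 6.27e-08), with the titled GFP- array of pool 1 standing above the other 3. Olfr299 read 3.92, 3.87, 4.48 and 4.84 against 7.19, 8.14, 8.26 and 8.16 in vehicle pools, a difference of 3.66 (SE 0.388, limma adjusted p = 1.45e-06). In undecanal pools it read 4.42, 3.73, 5.25 and 3.92 against 6.77, 8.23, 6.86 and 6.33, a difference of 2.72. Olfr299 lay below background on 3 of 4 arrays titled GFP- with each agent, so its differences rest on a level at or below background there.

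Olfr307 lay below background on every array titled GFP-, at 3.86, 4.14, 2.65 and 2.78 with vehicle and 3.39, 3.54, 3.07 and 4.55 with undecanal. The arrays titled GFP+ read 7.02, 7.39, 7.12 and 6.55, and 7.37, 8.59, 6.07 and 6.69. Against the background the receptor was at least 4.65-fold higher with vehicle and at least 5.20-fold higher with undecanal (limma adjusted p = 1.04e-05 and 1.58e-05), and the fitted differences of 3.66 and 3.54 are not fold changes of a measured level. Olfr293 read 4.31, 3.74, 5.06 and 3.81 against 7.29, 8.61, 6.66 and 7.96 in vehicle pools, a difference of 3.40 (limma adjusted p = 2.34e-06), and 4.30, 4.67, 4.80 and 3.81 against 7.68, 8.36, 7.31 and 7.52 in undecanal pools, a difference of 3.32. It too was below background on 3 of 4 arrays titled GFP- with each agent. The next 8 ran from 3.03 to 1.67 in vehicle pools: Olfr305, Olfr487, Olfr495, Olfr303, Olfr484, Olfr292, Olfr295 and Olfr498. Of these Olfr498 lay below background on all 4 vehicle arrays titled GFP-, which makes it at least 1.34-fold higher, and its fitted difference is not a fold change of a measured level. Its vehicle arrays titled GFP+ read 4.91, 4.97, 6.27 and 4.73, so that bound leans on pool 3. In undecanal pools Olfr498 averaged 3.05 in the fraction titled GFP- and 4.64 in the fraction titled GFP+. Its call there compares levels not above background. Olfr292 lay below background on 3 of 4 vehicle and 2 of 4 undecanal arrays titled GFP-, so its vehicle difference of 2.13 also rests on a level at or below background. It lost its call in undecanal pools, 1.18 there, when the arrays were quantile normalized or when undecanal pool 1 or pool 2 was left out (limma adjusted p up to 0.107). Values on each array are in the plot of 8 members.

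**Figure D1:**
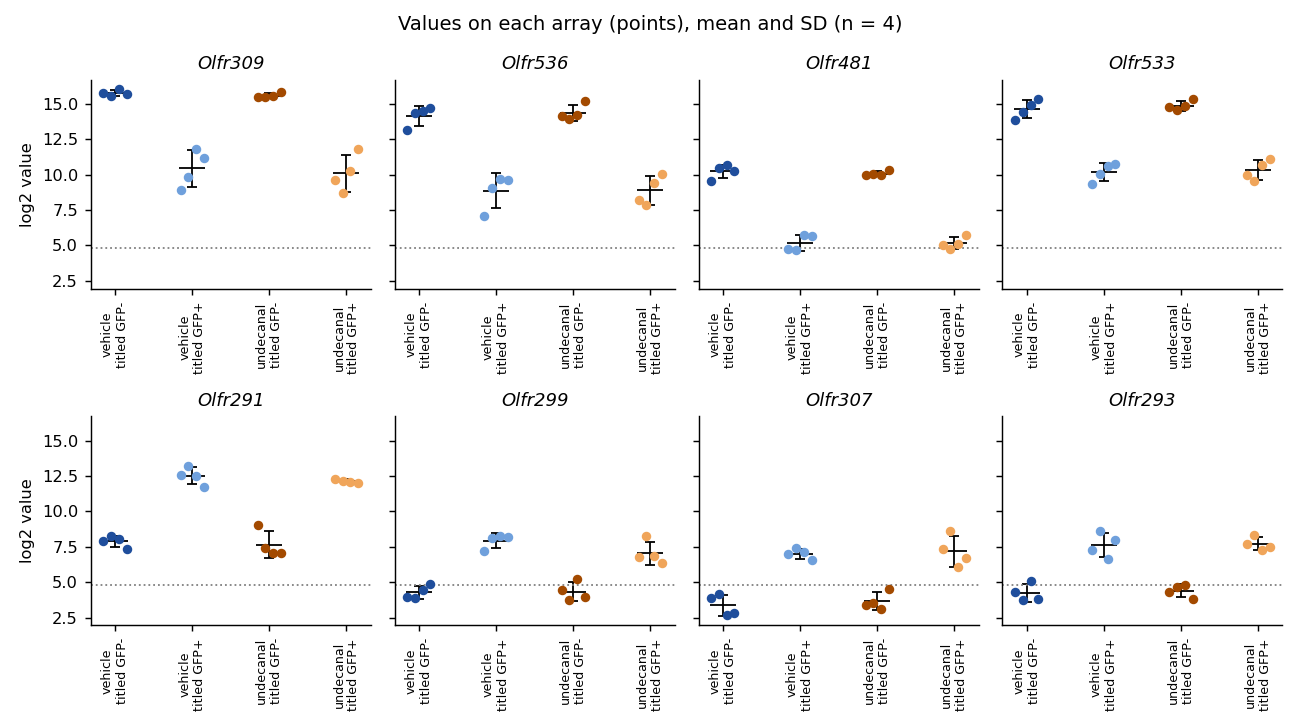
Log2 values (y axis) of the 4 lowest members (top row) and the 4 highest members (bottom row) on each of the 16 arrays, grouped on the x axis by agent and sort fraction. Points are arrays, black bars are the mean and SD of 4 arrays, and the dotted line is the background of 4.802. In vehicle pools Olfr309 reads 15.59 to 16.05 on arrays titled GFP- and 8.94 to 11.84 on those titled GFP+, and Olfr291 is the reverse, at 7.36 to 8.24 and 11.75 to 13.24.

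Nearest to 0 in vehicle pools, among members above background, were Olfr715 (0.01), Olfr539 (0.09) and Olfr5 (0.10), with differences of 0.68, 0.47 and 0.80 in undecanal pools, of which only that of Olfr715 passed (limma adjusted p = 0.0469). This call of Olfr715 was lost in 9 of 17 alternatives, with adjusted p up to 0.225, and that of Olfr5 was gained in 3, with a lowest adjusted p of 0.0353. Olfr715 and Olfr715b adjoin and share a symbol stem. Their sequences were not compared, but probe sets of close relatives can share signal, so their single values are uncertain.

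Undecanal pools gave nearly the same ranking. There 52 members (46.02%) were lower and 18 (15.93%) higher in the fraction titled GFP+, against 4.36% and 8.83% of all probe sets, and the median difference was -0.79. The arrays titled GFP+ lay wholly below the others for 52 members and wholly above for 17 (7.83% and 9.43% of all probe sets). The 2 fraction comparisons share no array. Across the 113 members the differences with vehicle and with undecanal correlated with Pearson's r of 0.985, a description across genes measured on the same platform and sorted by the same reporter, and 107 members had the same sign. The median gap between a member's 2 differences was 0.21. With both agents 50 members were lower and 16 higher, 0 were called in opposite directions, and 35 passed with neither. Lower with vehicle alone were Olfr474, Olfr497, Olfr503, Olfr507, Olfr508 and Olfr518, and lower with undecanal alone Olfr1532-ps1 and Olfr538. Of these, Olfr474 and Olfr503 had means below background in every group, so their calls compare levels not above background. Olfr507 lay below it on all 4 vehicle arrays titled GFP+, which makes it at least 1.33-fold lower. Higher with vehicle alone were Olfr1349 and Olfr714, and higher with undecanal alone Olfr6 and Olfr715. A pass with one agent and not with the other does not show a difference between agents, which the interaction below tests. Taking each pool by itself, 53 members were lower in all 8 pools and 19 higher in all 8, where 9.331% and 10.32% of all probe sets were.

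In gene order the members fell into 6 blocks, defined as runs with at most 20 other protein-coding genes between neighbouring receptors. The runs were drawn over all Olfr genes of the chromosome, so a block can also hold receptors that are not members. Block sizes count members only. The differences were not spread evenly over them. Block 2, of 17 receptors, all of them between Olfr290 and Olfr310 by symbol, held 9 of the 18 members that were higher in vehicle pools (Olfr291, Olfr292, Olfr293, Olfr295, Olfr299, Olfr303, Olfr305, Olfr307 and Olfr308), with 14 of 17 positive and a median of 1.53. Inside this same block lay Olfr309, the lowest member in vehicle pools, and Olfr290 (-1.16), its other lower member. In undecanal pools the block again had 9 higher and 2 lower members, with a median of 1.18. Its median stayed positive in each of the 17 alternatives, from 1.17 to 2.11 with vehicle and from 0.82 to 2.00 with undecanal.

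Block 6, of 19 receptors from Olfr522 to Olfr541 by gene order, held the opposite pattern. In vehicle pools 15 of its 19 members were lower, 0 were higher at an adjusted p under 0.05 and 4 did not pass, with a median of -1.80 and a range from -5.30 to 0.09. In undecanal pools 16 were lower and 0 higher, with a median of -1.80. Besides Olfr536, Olfr533 and Olfr522 it included Olfr60 (-3.33), Olfr527 (-3.28), Olfr61 (-2.70) and Olfr45 (-2.69), each lower with both agents. The 4 members that did not pass were Olfr524, Olfr530, Olfr538 and Olfr539. Over the alternatives 13 to 16 members were lower with vehicle and 14 to 17 with undecanal, and 0 were higher in any of them.

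The long block 5, of 65 receptors from Olfr693 to Olfr519, mixed both directions, with 34 lower, 7 higher and 24 not passing in vehicle pools and a median of -0.84. Its 7 higher members were Olfr711, Olfr713 and Olfr714 (1.58, 1.49 and 1.03), which lie close together in gene order, and Olfr484, Olfr487, Olfr495 and Olfr498, scattered among lower members. Between Olfr487 and Olfr495 lay Olfr488 (-1.22), Olfr490 (-3.95), Olfr491 (-3.83), Olfr493 (-1.26) and Olfr494 (-4.40), all lower, and Olfr492, which did not pass. Split after the values were seen, its stretch from Olfr467 to Olfr519 had 25 of 42 members lower and 4 higher (median -1.08). The stretch from Olfr692 to Olfr716, which includes Olfr692 of block 4, had 10 of 24 lower and 3 higher (median -0.69). Block 1, of 7 receptors from Olfr1336 to Olfr1350, had 2 of each direction, higher for Olfr1349 (1.61) and Olfr1348 (0.72) and lower for Olfr1350 (-2.07) and Olfr1336 (-1.77). Block 3 held Olfr520 and Olfr521, both lower, and block 4 held Olfr33, Olfr243 and Olfr692, of which Olfr692 (-1.52) was lower. With 50 other genes allowed between neighbours, blocks 4 and 5 joined, and the other 4 were as before.

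**Figure D2:**
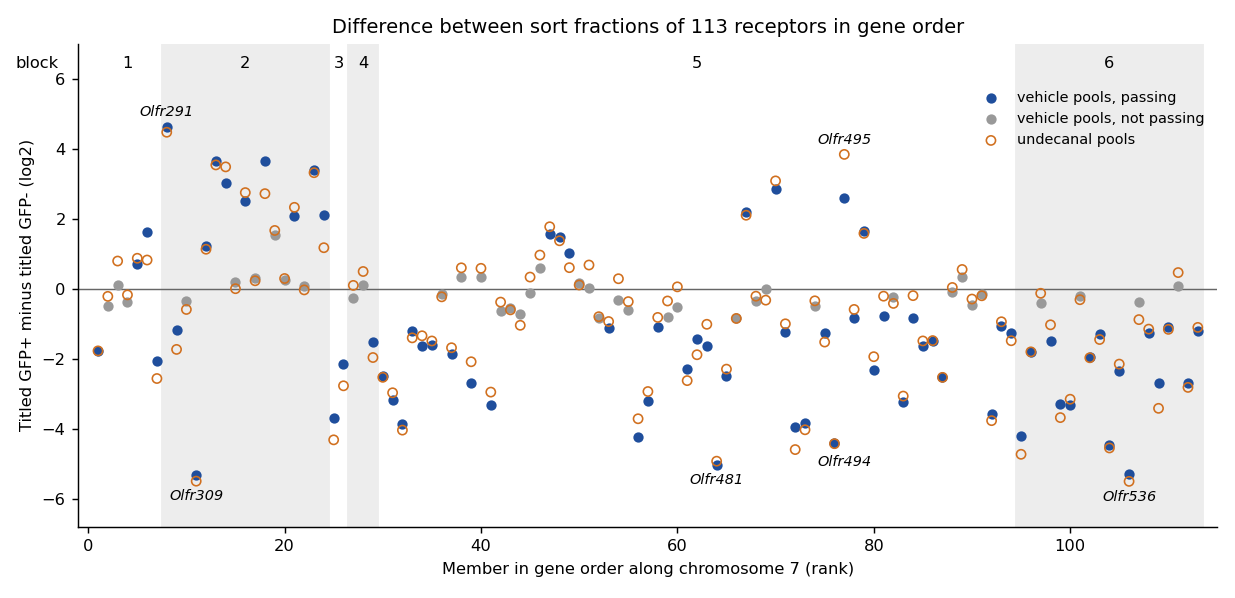
Difference between sort fractions, titled GFP+ minus titled GFP- on the log2 scale (y axis), of the 113 members in gene order along chromosome 7 (x axis, rank). Filled points are vehicle pools, blue where the limma adjusted p is under 0.05 and grey otherwise, open orange points are undecanal pools, and shading marks the 6 blocks. Block 2 holds 9 higher members beside Olfr309 at -5.32, and block 6 holds 15 lower and 0 higher in vehicle pools.

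Neighbouring members more often shared a sign than all pairs did, but by size they were no closer than other pairs of their block. Of the 103 pairs of neighbours with no other RefSeq receptor gene between them 79 (76.7%) had the same sign in vehicle pools, against 59.04% of all 6328 pairs of members. The share of same signs among pairs within a block was not computed, so the part of block membership in this gap is not known. The median gap between the differences of neighbours was 1.61, against 1.595 over the 2412 pairs within a block and 1.87 over all pairs. Pairs share members, so no test was made, and probe sets of closely related neighbours can share signal. Where both neighbours were called, 37 of 45 pairs had the same direction. Olfr698 and Olfr699 differed between fractions by -1.62 and -1.61, and Olfr527 and Olfr60 by -3.28 and -3.33. The largest gap between neighbours was that of Olfr494 (-4.40) and Olfr495 (2.61), of 7.00 on the log2 scale, with -4.42 and 3.84 in undecanal pools. Olfr309 lay beside Olfr308 (1.23), and Olfr291 beside Olfr290 (-1.16).

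Receptors on other chromosomes followed the extremes as closely as members did. Over the 16 arrays the pattern of Olfr291 was most like that of Olfr460 (Pearson's r 0.990), Olfr1198 (0.987) and Olfr411 (0.985), none of them a member, and that of Olfr309 most like that of Olfr1079 (0.990) and of the members Olfr45 and Olfr472 (both 0.988). Each coefficient runs over arrays of both fractions, so the gap between fractions enters it.

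The spread of the members within groups was wide and not even over pools. Their median SD within a group was 0.435 on the log2 scale against 0.254 over all probe sets, and the largest was 1.371. For the 50 members lower with both agents the median SD was 0.552 and 0.472 in the vehicle and undecanal arrays titled GFP+, against 0.323 and 0.306 in those titled GFP-. In vehicle arrays titled GFP+, pool 1 was the lowest array for 37 of these 50 (74%), where it was lowest for 27.93% of all probe sets, and its median deviation from the group mean was -0.62. In undecanal arrays titled GFP+, pool 4 was highest for 30 of 50 (60%, against 26.88% of all probe sets), with a median deviation of 0.43, and pools 1 and 2 were lowest for 19 and 23. Without vehicle pool 1, 47 members were lower and 17 higher between the fractions of vehicle pools. Without undecanal pool 4, 53 were lower and 14 higher between those of undecanal pools. The 50 members were chosen for being lower, and the spread described here lies within a group. The 16 members higher with both agents went the other way. Their median SD was 0.499 and 0.592 in the vehicle and undecanal arrays titled GFP-, against 0.463 and 0.438 in those titled GFP+. In undecanal arrays titled GFP-, pool 4 was lowest for 9 of these 16 (30.03% of all probe sets), with a median deviation of -0.51. In each set the wider spread thus lay in the fraction where the set was lower.

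Pool 4 of the undecanal mice also had the lowest mean of the immune markers in the fraction titled GFP+, 11.63 against 12.29 to 12.90, and pool 4 of the vehicle mice 11.96 against 12.53 to 12.83. The same undecanal array was also lowest for markers of immature neurons (12.38), basal and cycling cells (5.839), sustentacular cells and Bowman glands (8.892) and microvillar cells (6.614). It was not lowest for erythroid markers, at 9.115 against 8.517 in pool 3. Among vehicle arrays titled GFP+ the median deviation of the 50 lower receptors was highest in pool 3 (0.34), with 0.26 in pool 4. The part of these markers in the spread of the receptors was not tested. The mean of the markers of mature neurons moved less, from 15.45 to 15.51 in vehicle arrays titled GFP+. Pool by pool, the median difference over the 113 members was -1.10, -0.85, -0.82 and -0.80 with vehicle and -1.06, -0.88, -0.73 and -0.37 with undecanal. All 8 pools were below 0, and the median over all probe sets lay between -0.12 and -0.037 in them.

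**Figure D3:**
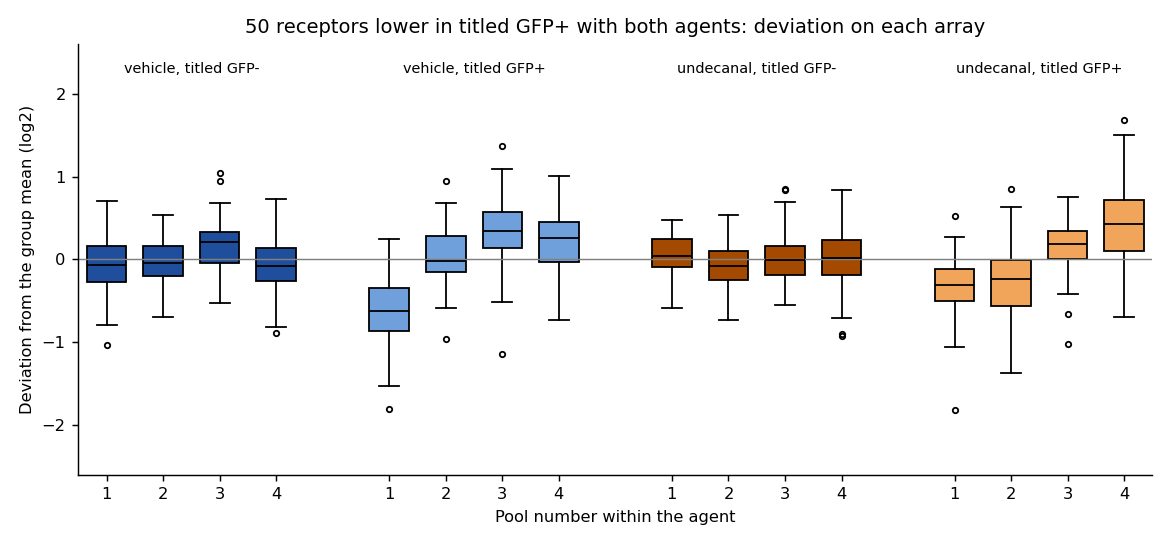
Deviation of each array from its group mean on the log2 scale (y axis) for the 50 members lower in the fraction titled GFP+ with both agents, by pool number (x axis) within each of the 4 groups. Boxes span the quartiles with the median as a line, whiskers reach to 1.5 times the box and circles lie beyond. Among the arrays titled GFP+ the medians are -0.62 for vehicle pool 1 and 0.43 for undecanal pool 4. Medians in the arrays titled GFP- stay between -0.084 and 0.21 for these 50 members. The 16 members higher with both agents, not drawn, had a median of -0.51 on the undecanal array titled GFP- of pool 4.

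Undecanal against vehicle gave no passing member in either fraction. In the fraction titled GFP+ 0 of 113 members passed at a limma adjusted p under 0.05 (0.0045% of all probe sets did, which is 1 of 22206), and 4 of 113 (3.54%) had an unadjusted p under 0.05 against 2.72% of all. The median effect was 0.004 on the log2 scale (-0.15 without vehicle pool 1 and -0.10 without undecanal pool 4), within a range from -0.89 to 0.66, and for 0 members were the 4 undecanal arrays wholly above or wholly below the 4 vehicle arrays (1.11% and 0.761% of all probe sets). The smallest p belonged to Olfr538, which read 9.08, 9.73, 9.40 and 9.32 with vehicle and 8.65, 8.74, 9.23 and 9.13 with undecanal (-0.44, SE 0.161, limma adjusted p = 0.999), to Olfr61 (-0.65, SE 0.278) and to Olfr299 (-0.89, SE 0.388). Olfr538 overlapped between agents, since its highest undecanal reading passed its lowest vehicle reading.

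In the fraction titled GFP- 0 members passed as well (0.0% of all probe sets), and 11 of 113 (9.735%) had an unadjusted p under 0.05 against 4.12% of all probe sets and 5.828% of the 978 other receptors. The median effect was -0.03, from -0.80 to 0.83. The smallest p was that of Olfr692, which read 7.45, 7.31, 6.88 and 7.06 with vehicle and 7.98, 8.41, 7.81 and 7.83 with undecanal. It was the 1 member whose undecanal arrays all lay above its vehicle arrays, as 1.18% of all probe sets did (0 members had all below, with 1.02% of probe sets), with an effect of 0.83 (SE 0.196) that did not pass (limma adjusted p = 0.814). Olfr495 (-0.80, SE 0.281) and Olfr715 (-0.61, SE 0.218) followed, with limma adjusted p of 1. Olfr495 read 5.93, 5.15, 5.51 and 5.79 with vehicle and 4.80, 5.52, 3.98 and 4.89 with undecanal, which overlap, and 2 of the latter lay below background.

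The interaction asks whether the difference between fractions itself changed with undecanal. For 0 of 113 members did it pass (0.0% of all probe sets), and 3 (2.655%) had an unadjusted p under 0.05 against 2.63% of all probe sets. The largest was that of Olfr495, whose difference between fractions was 2.61 with vehicle and 3.84 with undecanal, an interaction of 1.24 (SE 0.397, limma adjusted p = 1). Its undecanal arrays titled GFP- averaged 4.797, just under background, with 2 of 4 below, so the 3.84 and the 1.24 rest on a level not above background. The other 2 were Olfr538 (-0.50, SE 0.227) and Olfr715 (0.67, SE 0.309). The fraction comparisons and the interaction use the same 16 arrays. The 95% intervals of the effects lay within ±1 on the log2 scale for 91 members in the fraction titled GFP+, for 74 in the fraction titled GFP- and for 30 in the interaction, and within ±2 for 113, 113 and 111. Over all members the lowest and highest interval bounds were -1.71 and 1.38 in the fraction titled GFP+ and -2.10 and 2.08 in the interaction.

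**Figure D4:**
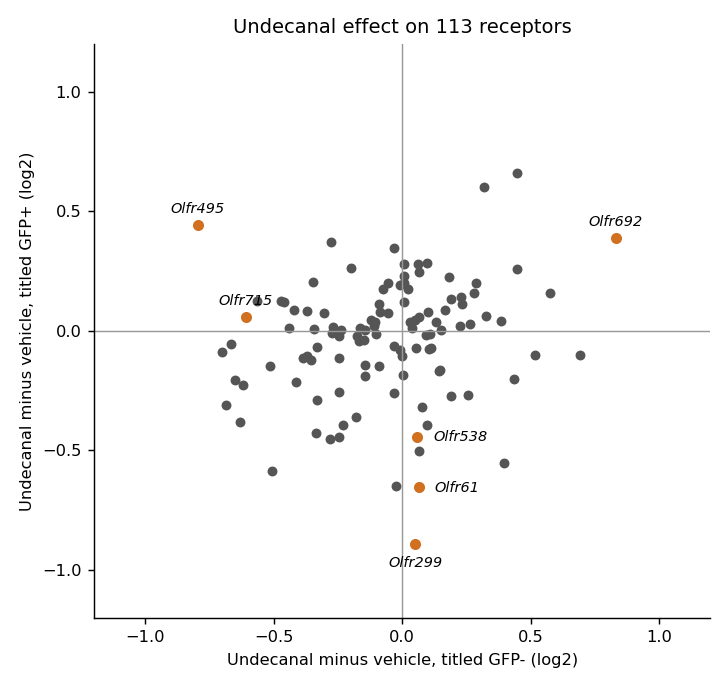
Undecanal minus vehicle on the log2 scale in the fraction titled GFP- (x axis) and in the fraction titled GFP+ (y axis), one point for each of the 113 members. Orange points are the members with the smallest unadjusted p in either fraction or in the interaction, and all values lie between -0.89 and 0.83, with 0 members passing.

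Of 19 genes for receptor choice and trafficking 2 were higher in the fraction titled GFP+ of vehicle pools, Lbr, a nuclear envelope receptor that tethers heterochromatin (1.07, limma adjusted p = 1.52e-05), and Cbx5, a heterochromatin protein (0.72, limma adjusted p = 0.0297), and 0 were lower, with a list median of -0.03. In undecanal pools Lbr passed again (0.99) and no other did. Over all probe sets 8.82% were higher and 5.12% lower with vehicle, and 8.83% and 4.36% with undecanal. The calls among these 19 genes lie near those shares and do not set the list apart. Of 17 genes of signal transduction 4 were lower with vehicle and 3 with undecanal, Ano2, Pde1c and Slc24a4, which encode a chloride channel, a phosphodiesterase and an ion exchanger of the cilia (-0.51, -0.65 and -0.60 with vehicle). Of 5 measured genes raised by activity 5 were lower with vehicle and 4 with undecanal. Markers of immature olfactory neurons were higher for 8 of 13 with vehicle and 6 of 13 with undecanal, at array means of 12.55 to 12.70 against 11.10 to 11.23 in vehicle pools. Markers of microvillar cells (7 of 8), of sustentacular cells and Bowman glands (5 of 10) and of basal and cycling cells (6 of 9) were higher in vehicle pools as well. In all groups 2 of the 8 microvillar and 4 of the 9 basal and cycling genes lay below background. Among them Chat and Cdk1 were called higher between levels under background, and the basal cell genes Krt5 and Trp63 did not pass (-0.31 and -0.24). The part of these cells in the receptor differences was not tested.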

How the data were processed

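The authors deposited 1 log2 value per probe set and array. Per the submitters' processing notes they used Affymetrix Expression Console, with algorithm and build not given in the sources used here. Values of the probe sets tested ran from 1.67 to 19.71. Of 28846 rows 6640 controls were left out. Depth is not defined for arrays, and their number limits precision. Limma 3.58.1 in R 4.3.3 fitted 4 group means to all 16 arrays without a block, with Benjamini-Hochberg adjustment over 22206 probe sets. The fit was tested on simulated data with known changes and independent noise. They held no pool effect, so this does not cover arrays that share a pool. The background is the 95th percentile of group means of 356 vomeronasal and bitter receptor probe sets. Probe sets of close receptor relatives can share signal. At-least folds use the background as the dim level.

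Members and lists were chosen with earlier results of these data known. The text names the 12 highest and 12 lowest passing members in vehicle pools, 3 nearest 0, the 3 smallest p where none passed, the 3 receptors most like either extreme, S100a5 and Omp, and members singled out after their values were seen (other block members, neighbour pairs, members called with 1 agent and those below background). All 113 members matched RefSeq genes by identifier, which gave gene order. Same-numbered arrays of 1 agent come from the same pool of 3 mice, as the labels' 24 mice imply. The r of their deviations from group means ran from 0.050 to 0.271 and exceeded 0.1 for 6 of the 8 pools. For 8 of 8 arrays titled GFP+ the best match was the array of the same pool. Arrays of a group correlated with r from 0.989 to 0.993, and 0 pairs were identical. Alternatives covered scaling, dim probe sets, prior variance, array weights, samples, pools left out and blocks. Protein sequences were not used here.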

Additional observations from a re-analysis of the deposited data

Results flagged for a closer look

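Of 128 groups of 4 arrays examined over 32 named genes, 5 held an array far from the other 3 by Dixon's criterion, which chance gives in about 1 in 20 groups. Olfr299 read 7.19 on the vehicle array titled GFP+ of pool 1, below 8.14 to 8.26 on the other 3. Olfr522 was also lowest in that pool, at 10.24 against 10.89 to 10.99. Olfr305 read 9.52 on the undecanal array titled GFP+ of pool 2, above 8.54 to 8.67. Olfr498 read 6.27 on the vehicle array titled GFP+ of pool 3, above 4.73 to 4.97. Omp, the mature neuron marker, read 18.71 on the vehicle array titled GFP- of pool 2, below 18.87 on the next. Of the members, 0 moved one way in every pool of one agent and the opposite way in every pool of the other.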

How the results depend on the processing

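The numbers of members higher and lower between fractions stayed within 1.5 times their main value in all alternatives, and the number changed by undecanal and in the interaction stayed at 0. In vehicle pools 18 higher and 56 lower became 17 and 70 when arrays were centred on their median, which took the member median from -0.84 to -1.19, and 20 and 49 when they were centred on the mature neuron list (median -0.57). In undecanal pools 18 and 52 became 16 and 69, and 24 and 49. Centring on the receptor median gave 19 and 50, and 20 and 52. With the pool as a fixed replicate block they were 18 and 58, and 17 and 55, so the pairing changed no count by over 1.5 times. Leaving out 1 pool gave 16 to 19 higher and 47 to 58 lower with vehicle, and 13 to 18 higher and 48 to 53 lower with undecanal. Of the 74 members called in vehicle pools 61 were called in all 17 alternatives, and of the 70 in undecanal pools 60, and 0 turned sign. The medians of block 4 with either agent and of block 1 with undecanal changed sign with the centring. A check of these blocks under the alternatives was added after seeing the data. The comparison by protein identity was not run. With 4 arrays per group, receptors dim in one fraction have only bounds.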
